A study of Mus musculus with 3 samples.

Results

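The sodium pump, or Na,K-ATPase, uses ATP to move sodium out of the cell and potassium in. It is built from a catalytic alpha subunit, which binds the ions and splits ATP, and a glycosylated beta subunit, without which alpha does not reach the plasma membrane. A small FXYD protein may join them and tune the pump. In macrophages, as in other cells, the sodium and potassium gradients that the pump makes set cell volume and membrane voltage and drive the uptake of amino acids, phosphate and other solutes. The genes described here are the beta subunit genes Atp1b1 and Atp1b3 and the FXYD gene Fxyd5, which were chosen from their measured values in these libraries, so their levels and differences are a description. Of these 3 genes, 2 had values among the 20574 gene symbols listed, and Fxyd5 was not analysed here.

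Macrophages taken from the mouse peritoneum were profiled by RNA sequencing, with 1 library for each of 3 conditions. The cells were untreated, kept for 5 h with 5 apoptotic cells to each macrophage, or given lipopolysaccharide (LPS), a bacterial outer membrane lipid, at 100 ng/ml for 5 h. The labels mark all 3 libraries WT and give no strain, age or sex, no source for the apoptotic cells and no time for the untreated cells, so treatment cannot be told apart from time or handling. The title of the series links efferocytosis, the engulfment of dying cells, with fatty acid oxidation, electron transport and a turn towards tissue repair. With 1 library per condition there was no replicate error and no test, and each difference is between libraries. Values were read as FPKM, mapped fragments scaled to transcript length and library size. They summed to 199881 untreated, 197222 with apoptotic cells and 200224 with LPS. Many genes were listed at exactly 0, including abundant ones, so a 0 is reported as listed and not as absence. Of the macrophage markers, Csf1r, the receptor for macrophage colony-stimulating factor, was the 1 analysed here. It was listed at 56.3 FPKM untreated, 185 FPKM with apoptotic cells and 0 with LPS. Cd9 and Cxcl13, which mark large peritoneal macrophages, were above 0 in every library, Cd9 at 357, 912 and 630 FPKM and Cxcl13 at 44.7, 364 and 112 FPKM in the same order. The other 8 of the 10 markers of these cells had a listed 0 in at least 1 library, among them Timd4 and Vsig4 with apoptotic cells.

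Atp1b1 lies on the minus strand of chromosome 1, from 164437109 to 164458355 in GRCm38 (mm10), with 4 annotated transcripts of which the longest has 2580 bases. Atp1b3 lies on the minus strand of chromosome 9, from 96332655 to 96364442, with 3 annotated transcripts, the longest of 1994 bases. Exons of Nme7, on the opposite strand, share 575 bases with exons of Atp1b1, and the strandedness of the libraries is not given in the sources used here. A transcript of Gm1848 matched Atp1b3 at 96.4% identity over 805 bases. Reads of these pairs may not have been separated, and neither Nme7 nor Gm1848 was analysed here.

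The 250 bases before the start of each gene are shown because both members were highest in the untreated library. Whether any motif bears on those levels was not tested. The windows come from RefSeq on GRCm38.p6, read 5′ to 3′ on the gene's strand. The gene bounds given above are those of GENCODE M21, and the Atp1b3 window, set from its RefSeq start, runs slightly into them. Capitals mark matches, on either strand, to the GC box GGGCGG, to the CCAAT box, or to TGACG, the core of the cyclic AMP response element. The TATA box was searched as TATAA alone and had no match in either window. Looser TATA-like stretches were not searched or marked, and the Atp1b1 window holds one, tatata, near its end.

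Atp1b1, chr1:164458356-164458605: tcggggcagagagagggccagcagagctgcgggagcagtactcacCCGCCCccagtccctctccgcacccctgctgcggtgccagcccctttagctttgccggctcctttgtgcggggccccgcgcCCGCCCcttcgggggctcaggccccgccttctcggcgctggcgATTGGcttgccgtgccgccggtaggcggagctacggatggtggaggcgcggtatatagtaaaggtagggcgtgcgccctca

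Atp1b3, chr9:96364432-96364681: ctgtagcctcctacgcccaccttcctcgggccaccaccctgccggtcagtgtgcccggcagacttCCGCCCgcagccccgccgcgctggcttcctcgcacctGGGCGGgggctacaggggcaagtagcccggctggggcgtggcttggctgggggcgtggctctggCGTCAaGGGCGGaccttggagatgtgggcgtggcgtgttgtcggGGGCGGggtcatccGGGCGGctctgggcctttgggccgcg

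The Atp1b1 window held 2 GC boxes and 1 CCAAT box, all on the opposite strand, and 0 response element cores. The Atp1b3 window held 5 GC boxes, 4 of them on the same strand as the gene, 1 response element core and 0 CCAAT boxes. No 2 of these matches overlapped. Among the 32851 RefSeq windows of the same length, 32.7% held a GC box, 33.8% a CCAAT box, 22.8% a TATA box and 17.8% a response element core. The windows of Atp1b1 and Atp1b3 were 70.4% and 73.6% G or C, against a median of 52.4% over all windows. A second annotated start of Atp1b3, with its window at chr9:96363716-96363965, had 0 matches to the same 4 motifs.

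Atp1b1 encodes the beta-1 subunit, the most widespread beta chain, which also takes part in adhesion between cells. Its values were 100.4 FPKM without treatment, 8.35 FPKM with apoptotic cells and 1.19 FPKM with LPS. The untreated library was the high one by a wide margin, and the LPS library was the lowest. Among genes above 0, Atp1b1 held rank 232 of 6747 in the untreated library, above 96.6% of them. With apoptotic cells it held rank 2776 of 7970, and with LPS rank 5420 of 7844, above 30.9%. It thus stood among the abundant transcripts without treatment and in the lower part of the range with LPS. If all reads lay on the longest transcript, the step size of the smallest FPKM values puts these levels at about 762, 65.0 and 8.24 reads. The LPS value therefore rests on few reads, and these estimates bear on counting error only.

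Atp1b3 encodes the beta-3 subunit, known as CD298 on the surface of leukocytes. Without treatment its value was 168 FPKM, and both treated libraries listed it at 0. The untreated level was above that of 98.1% of genes above 0 there, at rank 127 of 6747, or about 977 reads on the longest transcript. No ratio was formed against a listed 0. The same pattern, at least 100 FPKM in the untreated library and 0 in both others, was held by 33 of the 235 genes at that level, or 14.0%. The matching shares were 7.76% for genes at that level with apoptotic cells and 14.6% with LPS. Across the libraries 519 genes reached 100 FPKM in at least 1, and 269 of them had a listed 0. A listed 0 beside a high value was thus common in these tables, and it was not tested whether the 0 of Atp1b3 stands for a low transcript level.

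**Figure D1:**
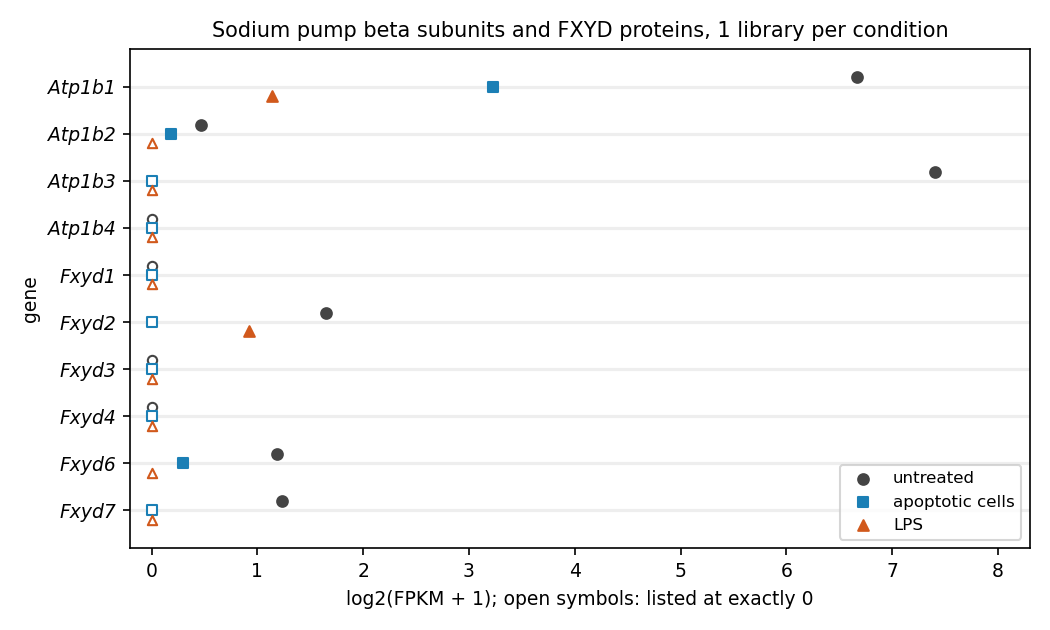
FPKM of the 10 listed beta and FXYD genes on the log2(FPKM + 1) scale, 1 symbol per library, with open symbols for a value listed at exactly 0. Atp1b1 is the only gene with filled symbols for all 3 libraries, in the order untreated, apoptotic cells, LPS from right to left, while Atp1b3 is filled for the untreated library alone.

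Atp1b2, the beta-2 subunit of glia, was listed at 0.382 FPKM untreated, 0.133 FPKM with apoptotic cells and 0 with LPS, about 4.26 and 1.57 reads for the values above 0. Atp1b4, a muscle protein of the beta family, was listed at 0 throughout. The beta subunits together summed to 269 FPKM untreated, 8.49 FPKM with apoptotic cells and 1.19 FPKM with LPS. Atp1b1 and Atp1b3 made up nearly all of the untreated sum, Atp1b3 168 FPKM of it. These sums take a listed 0 as 0, and Atp1b3 was listed at 0 in both treated libraries. The treated sums therefore do not show how much beta subunit RNA those cells held. In the untreated library Atp1b3 stood above Atp1b1 per length of transcript.

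FXYD proteins were low wherever they were listed. Fxyd2, the gamma subunit of kidney, was listed at 2.15 FPKM untreated, 0 with apoptotic cells and 0.896 FPKM with LPS. Fxyd6 was listed at 1.28 and 0.228 FPKM untreated and with apoptotic cells and at 0 with LPS, and Fxyd7 at 1.35 FPKM untreated and 0 in both others. Fxyd1, Fxyd3 and Fxyd4 were at 0 throughout. All 3 FXYD genes above 0 anywhere had their highest value in the untreated library, but each was listed at 0 with a treatment, Fxyd7 with both. Values this low may rest on few reads. The share of all genes highest in that library was not computed, so the count is not a trait of FXYD genes. Fxyd5 encodes dysadherin, a leukocyte and tumour FXYD protein that has been tied to weaker E-cadherin adhesion and to the chemokine gene Ccl2. The E-cadherin gene Cdh1 was listed at 0 in all 3 libraries, and Ccl2 at 107 FPKM untreated, 11.2 FPKM with apoptotic cells and 0 with LPS.

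The first comparison asks how the pump genes stood after 5 h with apoptotic cells. Atp1b1 was 12.0-fold lower on plain FPKM with apoptotic cells than without (log2 ratio -3.44, with 1 FPKM added to both values). Relative to the median of all genes, at -0.13, the ratio was -3.30. Genes averaging 1 FPKM or more and listed above 0 on both sides numbered 3369. Of these, 16.4% (554) were lower by 2-fold or more and 12.4% (418) were higher, or 428 and 539 after median-of-ratios scaling. Atp1b1 was at position 11 from the lowest, between Cxcl5 (-3.46), a neutrophil-attracting chemokine gene, and Ltb (-3.41), the lymphotoxin beta gene of lymphocytes. Since Atp1b1 was chosen on such values, its rank is no evidence of its own.

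With LPS the difference from the untreated library was larger. Atp1b1 was 84.0-fold lower on plain FPKM with LPS than without treatment, a log2 ratio of -5.53, or -5.13 relative to the median of all genes at -0.40. It was the lowest ratio of the 3421 genes compared, followed by Sbk1 (-4.85) and N4bp3 (-4.56). Of those genes 26.2% (896) were lower by 2-fold or more and 8.51% (291) were higher. After median-of-ratios scaling these counts were 450 and 647, the median of all genes was 0.10, and Atp1b1 lay at -5.16 relative to it.

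The third comparison sets the treated libraries against each other, and both carry 5 h of treatment. The values of Atp1b1, 8.35 FPKM with apoptotic cells against 1.19 FPKM with LPS, were 6.99-fold apart on plain FPKM. The log2 ratio was 2.09, or 1.78 relative to the median of 0.32. It was at position 129 from the highest of 4599 genes, of which 15.7% (722) were 2-fold or more higher with apoptotic cells and 5.54% (255) lower, or 420 and 444 after median-of-ratios scaling. The comparisons share libraries, so the values are set side by side only. Genes with Atp1b1's order, untreated highest and LPS lowest, made up 34.2% of the 2891 genes above 0 in all 3 libraries that averaged 1 FPKM or more. With at least 2-fold between each pair of libraries, the order was held by 38 genes (1.31%), Atp1b1 included.

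**Figure D2:**
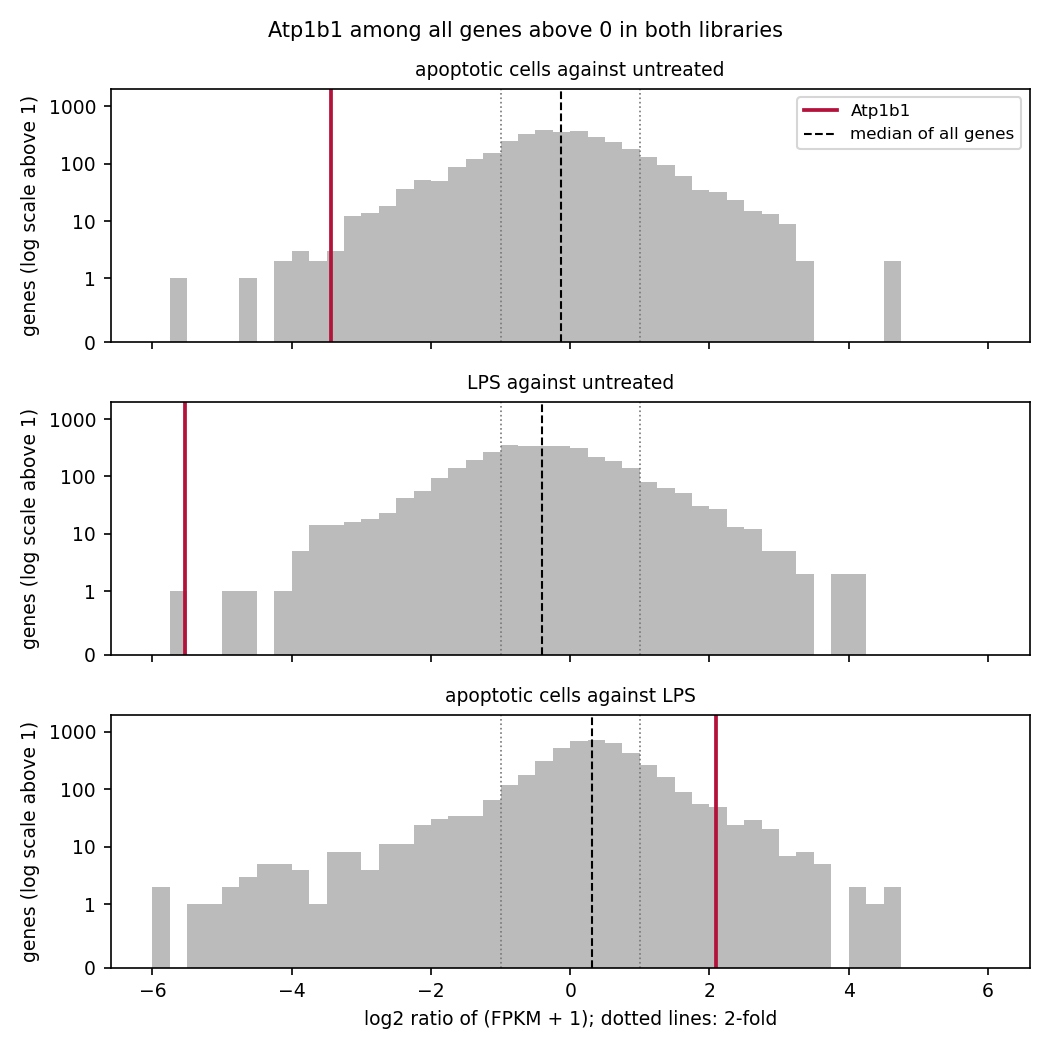
Number of genes (log scale above 1) by log2 ratio of FPKM + 1 in each comparison, for genes above 0 in both libraries; ratios past either end are drawn in the last bin. The red line marks Atp1b1 at -3.44, -5.53 and 2.09 from top to bottom, the dashed line the median of all genes and the dotted lines a 2-fold difference.

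The genes nearest to Atp1b1 in pattern were sought over the 3 libraries, by the distance between the values of log2(FPKM + 1) after the mean of each gene was taken off. Small RNAs and uncharacterised gene models, picked out by their names, were not ranked. Among the 1640 others above 0 in all libraries and averaging 5 FPKM or more, the nearest were Sbk1, N4bp3, Lbh, Mrgpre and H2-Oa. Their distances ran from 0.94 to 1.21 against a median of 3.82 over all genes ranked. Sbk1, a kinase with an SH3-binding domain, was listed at 81.8 FPKM untreated, 18.1 FPKM with apoptotic cells and 1.87 FPKM with LPS. The binding partner of the ubiquitin ligase NEDD4 encoded by N4bp3 was at 30.2, 1.14 and 0.328 FPKM, and the transcription cofactor gene Lbh at 144, 16.3 and 8.33 FPKM. Mrgpre, an orphan receptor gene of the Mas family, was at 17.5, 1.11 and 0.178 FPKM. H2-Oa, which encodes a chain of the class II chaperone H2-O found mainly in B cells, was at 29.9, 7.24 and 0.783 FPKM. All 5 had the same order as Atp1b1, and with 3 libraries per pattern the likeness is a description.

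**Figure D3:**
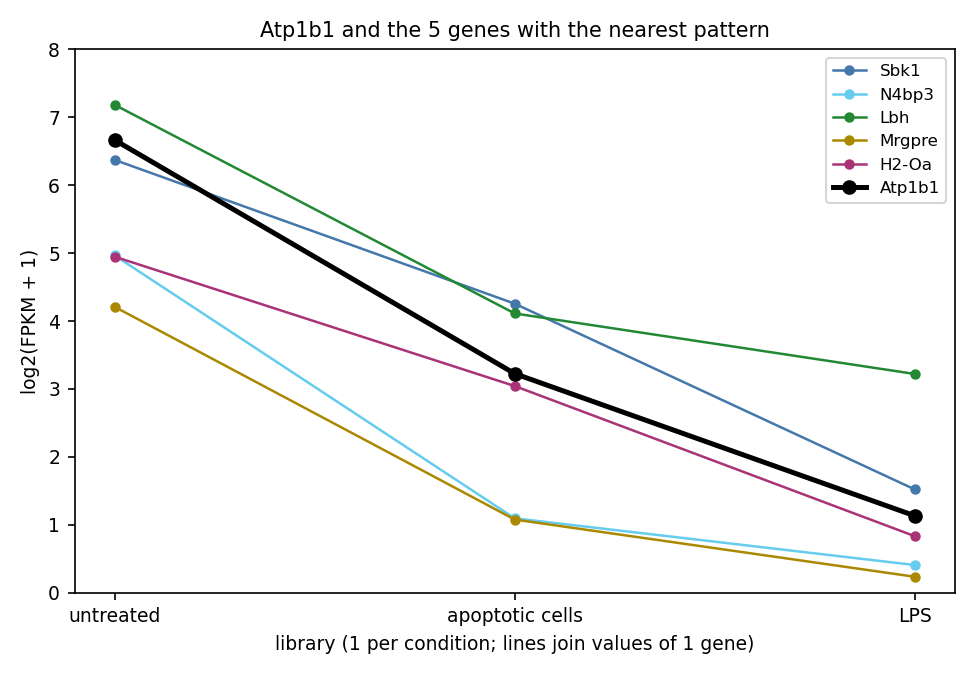
Values of log2(FPKM + 1) for Atp1b1 (thick line) and the 5 genes nearest to it, with lines that only join the values of 1 gene. Each gene is highest in the untreated library and lowest with LPS, where Atp1b1 reaches 1.19 FPKM.

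Of the marker lists for other cells, some had sums in the order of Atp1b1, untreated highest and LPS lowest. They were those of B cells, mast cells and eosinophils, mesothelial cells and fibroblasts, and epithelial cells. Sums here and below take a listed 0 as 0, so their order can rest on such entries. With LPS 9 of the 11 mesothelial and fibroblast markers and all 4 epithelial markers were listed at 0. Of the 10 B-cell markers 6 were listed at 0 in the untreated library. Fewer cells of a type and less RNA per cell cannot be told apart in these libraries. B-cell markers summed to 863 FPKM untreated, 209 FPKM with apoptotic cells and 165 FPKM with LPS over 10 genes. With apoptotic cells 4 of the 4 that could be compared were lower by 2-fold or more, and with LPS 3 of 3, against 16.4% and 26.2% of all genes. Ly6d led them at 563, 42.7 and 73.9 FPKM and Cxcr5 was listed at 214, 12.1 and 0 FPKM. The defining genes Cd79a, Cd79b, Ms4a1, Pax5 and Cd22 were listed at 0 in the untreated library, and so was Fcer2a. None of them could therefore enter the counts against the untreated library. Cd79b was at 85.6 FPKM with apoptotic cells and 19.1 FPKM with LPS, and Ms4a1 at 28.9 and 15.9 FPKM. The B-cell list therefore did not move as one.

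Mast cell and eosinophil markers summed to 103, 20.5 and 10.3 FPKM over 10 genes, with 4 of 5 lower by 2-fold or more with apoptotic cells and 5 of 5 with LPS, against the same 16.4% and 26.2% of all genes. Fcer1a, Epx and Prg2 were at 0 in the untreated library. Mesothelial and fibroblast markers summed to 29.7, 2.88 and 1.13 FPKM over 11 genes, of which 10 were above 0 untreated, 8 with apoptotic cells and 2 with LPS. Most of these markers were low even untreated, so a listed 0 among them says little. Of all 20574 genes, 6747 were above 0 untreated, 7970 with apoptotic cells and 7844 with LPS. The mesothelial marker Msln was listed at 1.58, 0.151 and 0 FPKM, and Wt1 at 0 untreated and with LPS. Of the 4 epithelial markers Epcam was listed at 6.90, 0.785 and 0 FPKM, and Cdh1 and Cldn3 at 0 throughout. In the untreated library Atp1b1, at 100.4 FPKM, was above the sums of the mesothelial and fibroblast list and the epithelial list (7.81 FPKM). It was below those of the B-cell list (863 FPKM) and the mast cell and eosinophil list (103 FPKM). Levels of different genes cannot show which cells a transcript came from, and this was not tested.

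The sums of other lists did not share the order, though single genes in them did. T-cell and thymocyte markers summed to 31.0, 99.3 and 2.21 FPKM over 12 genes, with Cd3e, Cd3d and Rag1 at 0 untreated. The 4 T-cell genes above 0 untreated, Cd3g, Cd4, Rag2 and Dntt, all had the order of Atp1b1. The T-cell sums left that order only through genes listed at 0 untreated. With apoptotic cells 0 of the 3 T-cell genes compared were lower by 2-fold or more, and with LPS 2 of 2. Neutrophil markers summed to 119, 325 and 496 FPKM over 9 genes, with Elane at 0 throughout. Dendritic cell markers summed to 10.1, 24.6 and 55.5 FPKM over 5 genes, and Ccr7, at 0 untreated, carried the treated sums at 24.0 and 54.4 FPKM. The other 4 dendritic cell genes, Kmo (5.45, 0.140 and 0.716 FPKM), Siglech, Flt3 and Xcr1, were highest in the untreated library, as Atp1b1 was. NK cell markers stayed at or under 2.14 FPKM in sum over 6 genes, with Ncr1 and Eomes at 0 throughout, and the 1 erythroid gene, Alas2, was listed at 0.315 FPKM untreated and 0 with either treatment. Large peritoneal macrophage markers summed to 806, 1285 and 780 FPKM over 10 genes, with Gata6 and Tgfb2 at 0 untreated and with apoptotic cells. Cd9 and Cxcl13 carried the treated sums. Lyz1 (349 FPKM), F5 (29.6 FPKM) and Alox15 (12.3 FPKM) had values without treatment and a listed 0 under both treatments, the pattern of Atp1b3. The part of other cell types in the values of Atp1b1 and Atp1b3 was not tested.

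The wider set of ion transport genes was taken from lists of related pumps, sodium-driven carriers, potassium and chloride channels and carriers, and regulators, together with the other beta and FXYD genes. Without the members it had 69 genes, of which 56 were analysed. With apoptotic cells against no treatment 8 could be compared, and 2 were higher by 2-fold or more and 2 lower around a median log2 ratio of 0.61. With LPS against no treatment 11 could be compared, with 0 higher and 1 lower around a median of -0.17. Between apoptotic cells and LPS 20 could be compared, with 7 higher and 4 lower around a median of 0.45. Over all genes the medians were -0.13, -0.40 and 0.32 and the background shares are those given above.

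Potassium channels carry the ions that the pump brings in back out of the cell. Kcnk13, a background potassium channel of myeloid cells, stood at 23.3 FPKM with apoptotic cells, 4.30 FPKM untreated and 4.12 FPKM with LPS, so its apoptotic-cell value was the high one (log2 ratio 2.20 against untreated, on the log2(FPKM + 1) scale). Kcnk6, another background channel, had the same order with smaller differences, at 8.17 FPKM untreated, 16.7 FPKM with apoptotic cells and 6.40 FPKM with LPS (0.95 against untreated). Kcna3, the voltage-gated channel of lymphocytes and macrophages, went the other way, at 8.42, 2.70 and 11.5 FPKM (-1.35 with apoptotic cells). The potassium-chloride cotransporter gene Slc12a7 was listed at 2.25, 3.79 and 0.835 FPKM. Of the 17 genes of this list analysed, 5 could be compared between apoptotic cells and no treatment. Of these 5, 1 was higher by 2-fold or more and 1 lower, against 12.4% and 16.4% of all genes.

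Sodium-driven carriers spend the gradient that the pump makes. None of the 14 analysed was above 0 in all 3 libraries, and 11 were listed at 0 in the untreated one. Between apoptotic cells and LPS 5 could be compared, around a median of -0.13. On the log2(FPKM + 1) scale 0 were 2-fold apart, against 15.7% of all genes higher and 5.54% lower. With 5 genes that count says little beside those shares. The amino acid carriers Slc38a2 (31.0 and 62.8 FPKM) and Slc1a5 (27.4 and 15.6 FPKM), chosen for naming after their values were seen, had the highest means of these 5. Slc38a2 was just short of a 2-fold difference on that scale. Carriers with a listed 0 on either side could not enter, among them Slc20a1 (0 and 55.4 FPKM), Slc6a6 (0 and 36.0 FPKM) and Slc9a8 (9.89 and 0 FPKM). Among related pumps Atp2b4, a plasma membrane calcium pump, was the 1 of 9 above 0 in every library, at 2.11 FPKM untreated, 0.362 FPKM with apoptotic cells and 2.18 FPKM with LPS. The proton-potassium pump genes Atp4a, Atp4b and Atp12a, the nearest relatives of the sodium pump, were listed at 0 throughout.

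Among regulators, Nedd4, a ubiquitin ligase, stood at 8.12 FPKM untreated, 24.7 FPKM with apoptotic cells (1.49) and 3.22 FPKM with LPS (-1.11). Its highest value was with apoptotic cells and its lowest with LPS. The kinase genes Oxsr1 and Stk39 switch chloride cotransporters in response to cell volume. Oxsr1 was at 15.5, 10.7 and 8.42 FPKM in the order untreated, apoptotic cells, LPS, within 2-fold in every comparison on the log2(FPKM + 1) scale. Stk39, at 0.622, 0.443 and 0.908 FPKM, was too low to be among the genes compared. With 1 FPKM added, values under 1 FPKM cannot be 2-fold apart.

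**Figure D4:**
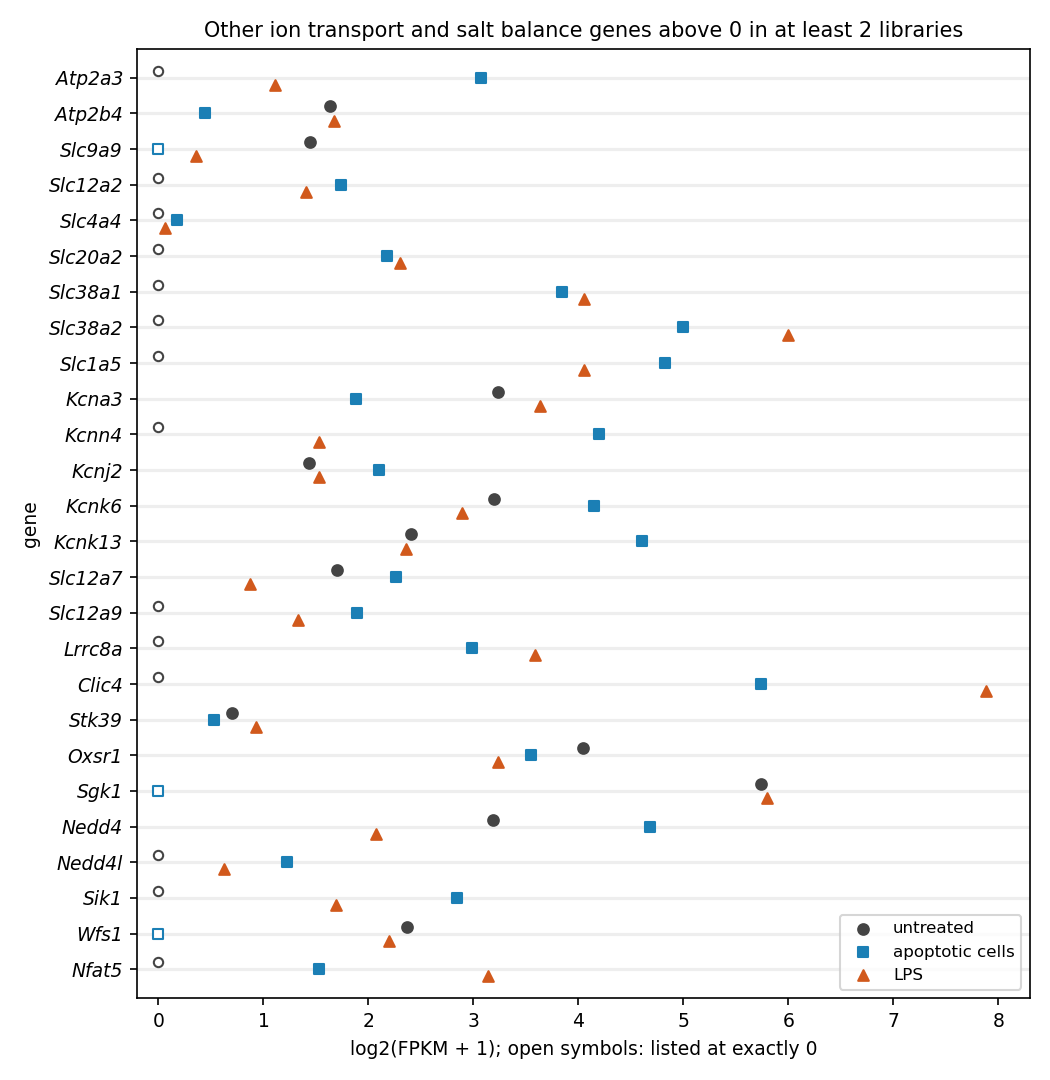
Values on the log2(FPKM + 1) scale of the genes for other pumps, carriers, channels and regulators that were above 0 in at least 2 libraries, with open symbols for a value listed at 0. Kcnk13 and Nedd4 have their highest value with apoptotic cells, and none of these genes shows the 84.0-fold span of Atp1b1 among values above 0.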

How the data were processed

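The authors deposited 1 table per library. Its values were taken as FPKM: no unit is given, but the submitters' processing notes name Cufflinks 2.2.1, with cutadapt 1.14, TopHat2 2.1.0, Cuffdiff and the build mm10. The annotation and the options were not given in the sources used here. The 3 members, the gene lists and the rules were chosen with earlier results of these data known.

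Ratios were log2((FPKM + 1) / (FPKM + 1)), which understates differences of low genes. They were formed for genes averaging 1 FPKM or more and above 0 in both libraries. No test was run, as each group had 1 library. The members, the other beta and FXYD genes, up to 4 genes per other list (above 0 in all libraries, highest mean), the 5 nearest patterns, Cdh1 and Ccl2 were to be named. Marker genes and genes next in rank were named after their values were seen.

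Depth is not stated. Fitted steps of 0.33, 0.29 and 0.345 FPKM per read on 1 kb, after length offsets of 75, 325 and 200 bases, gave approximate reads. These fits are loose, so no count test was run. Similar transcripts were sought with blastn 2.17.0 (at least 90% identity over 100 bases) in GENCODE M21. Some items of the fixed lists are not reported here and were left out of the counts and sums. The ratio step was checked on simulated libraries that held counting error only, and the pattern step on a few made-up patterns. Neither check covers variation between samples.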

Additional observations from a re-analysis of the deposited data

How the results depend on the processing

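No paired analysis was possible because each group has 1 library, and leaving out a library was not possible for the same reason. Atp1b3 and Fxyd5 gave no ratio under any setting. Before the median of all genes was taken off, Atp1b1 kept its direction and stayed past 2-fold under every setting tried. With apoptotic cells against no treatment (-3.44) it was -2.98 with a pseudocount of 5 FPKM and moved by under 0.3 otherwise. With LPS against no treatment (-5.53) it was -6.28 and -4.09 with pseudocounts of 0.1 and 5 FPKM. It was -6.17 after rescaling to a common sum, -5.05 after median-of-ratios scaling and, as chosen after seeing the data, -6.39 with no pseudocount. Between apoptotic cells and LPS (2.09) it was 2.71 and 1.11 with those pseudocounts, 2.64 after rescaling to a common sum and 2.81 with no pseudocount. Relative to the median of all genes, the 1.11 with a pseudocount of 5 FPKM became 0.92, which is under 2-fold. A pseudocount weighs most on the low LPS value. The library sums were nearly equal, so rescaling to a common, larger sum enlarged all values by a similar factor and acted as a smaller pseudocount.

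Counts of genes past 2-fold depended more on the settings. In the order higher and lower, for apoptotic cells against no treatment, LPS against no treatment and apoptotic cells against LPS, a pseudocount of 5 FPKM gave 235 and 228, 164 and 321, and 278 and 155. A threshold of 1.5-fold gave 746 and 1021, 543 and 1461, and 1537 and 496, and one of 4-fold 96 and 143, 68 and 194, and 148 and 90. A listed 0 taken as a value gave 2682 and 1378, 2605 and 1674, and 1741 and 1423. Median-of-ratios scaling gave 647 and 450 for LPS against no treatment and 420 and 444 between the treated libraries. A mean of at least 5 FPKM gave 268 lower with apoptotic cells and 429 lower with LPS, and 398 higher and 163 lower between them. Genes above 0 in all 3 libraries gave 464 higher there. The other 41 of 84 values moved by less than 0.3 log2 or 1.5 times. With about 8.24 reads behind it, the LPS value of Atp1b1 is the one that depth limits most.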
